A study of Mus musculus with 3 samples.

Results

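The 78 genes described here encode proteins of the mitochondrial ribosome and were taken from 55536 annotated mouse genes. They were chosen by symbol alone, as every gene named Mrpl or Mrps followed by a number that has at least 1 transcript annotated as protein-coding. The pattern matched 83 symbols, and 5 of them, which have no protein-coding transcript, were dropped. By symbol, 49 members belong to the large subunit (Mrpl) and 29 to the small subunit (Mrps).

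RNA bound to chromatin was sequenced after removal of ribosomal RNA from macrophages grown from bone marrow of C57BL/6J mice. All libraries came from 1 group. The cells were given Lipid A (the moiety of lipopolysaccharide sensed by Toll-like receptor 4) at 100 ng/ml for 12 h, spent 12 h after it was washed out, and were then exposed to 100 ng/ml again for 15 min. The group has 3 libraries, replicates 1, 2 and 3, made from 1000, 250 and 500 ng of RNA. No untreated cells and no other fraction were analysed here, so no value below is an effect of Lipid A. The labels call them biological replicates, but a single donor is named for all 3, with no word on separate animals. How far the variation among libraries is biological or technical thus cannot be told. Age and sex were not recorded. The libraries held 14429104, 17340005 and 24107360 expected counts in annotated genes. All 8 macrophage markers lay at 35.4 TPM or higher. Of the markers listed for stromal cells and for other blood lineages, none exceeded 3.21 TPM, the mean of Pf4.

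Mitochondria keep their own ribosome, which makes the few proteins still encoded by mitochondrial DNA, all of them membrane subunits of the respiratory chain and of ATP synthase. Its RNA is transcribed inside the organelle, but its proteins are encoded in the nucleus, made in the cytosol and imported. The genes therefore give an ordinary set of nuclear housekeeping transcripts scattered over many chromosomes, here 17. The small subunit reads the messenger RNA and the large subunit joins the amino acids and holds the exit tunnel. Some symbols mislead: Mrps18a and Mrps30 are built into the large subunit in known structures, and Mrps36 is now known as a part of the oxoglutarate dehydrogenase complex.

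The promoters of 5 members are shown first, since they differ in which of 2 motifs they hold. RefSeq gave a 300 base promoter (250 bases before and 50 after the start site, build GRCm38.p6) for 69 of the 78 members. The missing members were Mrpl4, Mrpl13, Mrpl15, Mrpl19, Mrpl38, Mrpl54, Mrps28, Mrps34 and Mrps35. Shown are the highest member of each subunit (Mrpl24, chr3:87919294-87919593 on the plus strand, and Mrps9, chr1:42850983-42851282 on the plus strand) and the next in level, Mrpl3 (chr9:105053018-105053317 on the plus strand). Mrps26 (chr2:130563507-130563806 on the plus strand) and Mrpl57 (chr14:57825989-57826288 on the plus strand) hold both motifs that are marked. Capitals mark the letters of the NRF1 core and of the ETS motif CCGGAAG, on either strand.
Mrpl24: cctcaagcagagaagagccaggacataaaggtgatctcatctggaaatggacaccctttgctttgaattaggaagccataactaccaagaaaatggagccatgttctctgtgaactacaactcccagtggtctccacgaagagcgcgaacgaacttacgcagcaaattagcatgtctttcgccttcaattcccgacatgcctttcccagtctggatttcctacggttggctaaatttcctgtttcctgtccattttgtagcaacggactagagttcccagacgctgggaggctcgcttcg
Mrps9: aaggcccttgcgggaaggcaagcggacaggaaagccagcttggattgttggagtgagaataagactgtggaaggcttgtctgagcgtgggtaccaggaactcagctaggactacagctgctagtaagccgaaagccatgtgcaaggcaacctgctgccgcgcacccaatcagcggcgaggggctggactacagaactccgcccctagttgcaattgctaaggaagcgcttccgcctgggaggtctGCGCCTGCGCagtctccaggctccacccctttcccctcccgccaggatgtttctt
Mrpl3: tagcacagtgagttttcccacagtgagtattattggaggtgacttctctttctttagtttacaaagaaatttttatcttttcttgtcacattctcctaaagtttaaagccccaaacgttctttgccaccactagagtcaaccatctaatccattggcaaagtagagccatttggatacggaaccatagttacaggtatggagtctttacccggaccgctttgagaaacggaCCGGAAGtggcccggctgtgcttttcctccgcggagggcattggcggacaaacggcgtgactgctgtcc
Mrps26: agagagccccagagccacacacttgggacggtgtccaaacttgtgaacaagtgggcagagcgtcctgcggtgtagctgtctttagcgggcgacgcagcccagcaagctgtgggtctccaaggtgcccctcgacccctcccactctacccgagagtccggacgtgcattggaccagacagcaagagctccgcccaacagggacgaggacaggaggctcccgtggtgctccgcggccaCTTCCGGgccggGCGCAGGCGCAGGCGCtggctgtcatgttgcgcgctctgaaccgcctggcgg
Mrpl57: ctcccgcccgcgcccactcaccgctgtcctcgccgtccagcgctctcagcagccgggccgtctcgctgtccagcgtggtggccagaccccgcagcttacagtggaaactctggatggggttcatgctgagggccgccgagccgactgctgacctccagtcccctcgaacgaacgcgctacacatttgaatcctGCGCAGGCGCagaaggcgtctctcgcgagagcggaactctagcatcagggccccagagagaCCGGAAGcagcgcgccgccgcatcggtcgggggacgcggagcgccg

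NRF1, nuclear respiratory factor 1, and ETS factors such as GABP are textbook regulators of nuclear genes for mitochondrial proteins. The NRF1 core was searched as GCGCA, any 1 base and GCGC. It was present in 13 of 69 member promoters (18.8%), beside 11.0% of the 9246 promoters of detected genes with a protein-coding transcript and 6.90% of all 16519 promoters. CCGGAAG was present in 24 member promoters (34.8%), beside 19.7% of detected genes and 12.3% of all. Both motifs occurred together in 4, those of Mrpl17, Mrpl57, Mrps21 and Mrps26, which is 5.80% beside 2.37% of detected genes. CCAAT was present in 27 member promoters (39.1%), beside 39.3% of detected genes, and TATAAA in 4 (5.80%), beside 6.82%. Neither NRF1 nor CCGGAAG letters lie in the printed promoter of Mrpl24, the highest member. Median TPM was 5.53 for members with the NRF1 core and 5.71 without it, and 6.30 with CCGGAAG and 5.53 without it. A match is a stretch of letters and not a measured binding site, and 50 of the 69 RefSeq start sites lay within 100 nt of the start of the gene in the annotation of the files.

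Chromatin RNA was present for nearly every member, at a median level below that of detected genes. Levels are given as TPM, a unit corrected for transcript length and library size, from the authors' alignment-based gene table unless the other table is named. A gene counted as detected with a mean of at least 10 expected counts, which 76 of 78 members reached (48 of 49 large and 28 of 29 small), beside 53.5% of all 21888 genes with a protein-coding transcript. By the read-based values all 78 members were detected, and the share of all genes was not computed there. Every member averaged 1 TPM or more, 52 lay between 2 and 10 TPM, and 7 lay below 2 TPM. A mean of at least 10 TPM was reached by 19 members (9 large, 10 small), beside 26.6% of all genes with a protein-coding transcript. Summed TPM of the family was 643, 618 and 634 in replicates 1 to 3 (632 ± 12.7, SD, n = 3). The 5 highest members held 26.5% ± 0.18 (SD, n = 3) of that sum. Members took 0.0710%, 0.0718% and 0.0663% of the counts of the 3 libraries.

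**Figure D1:**
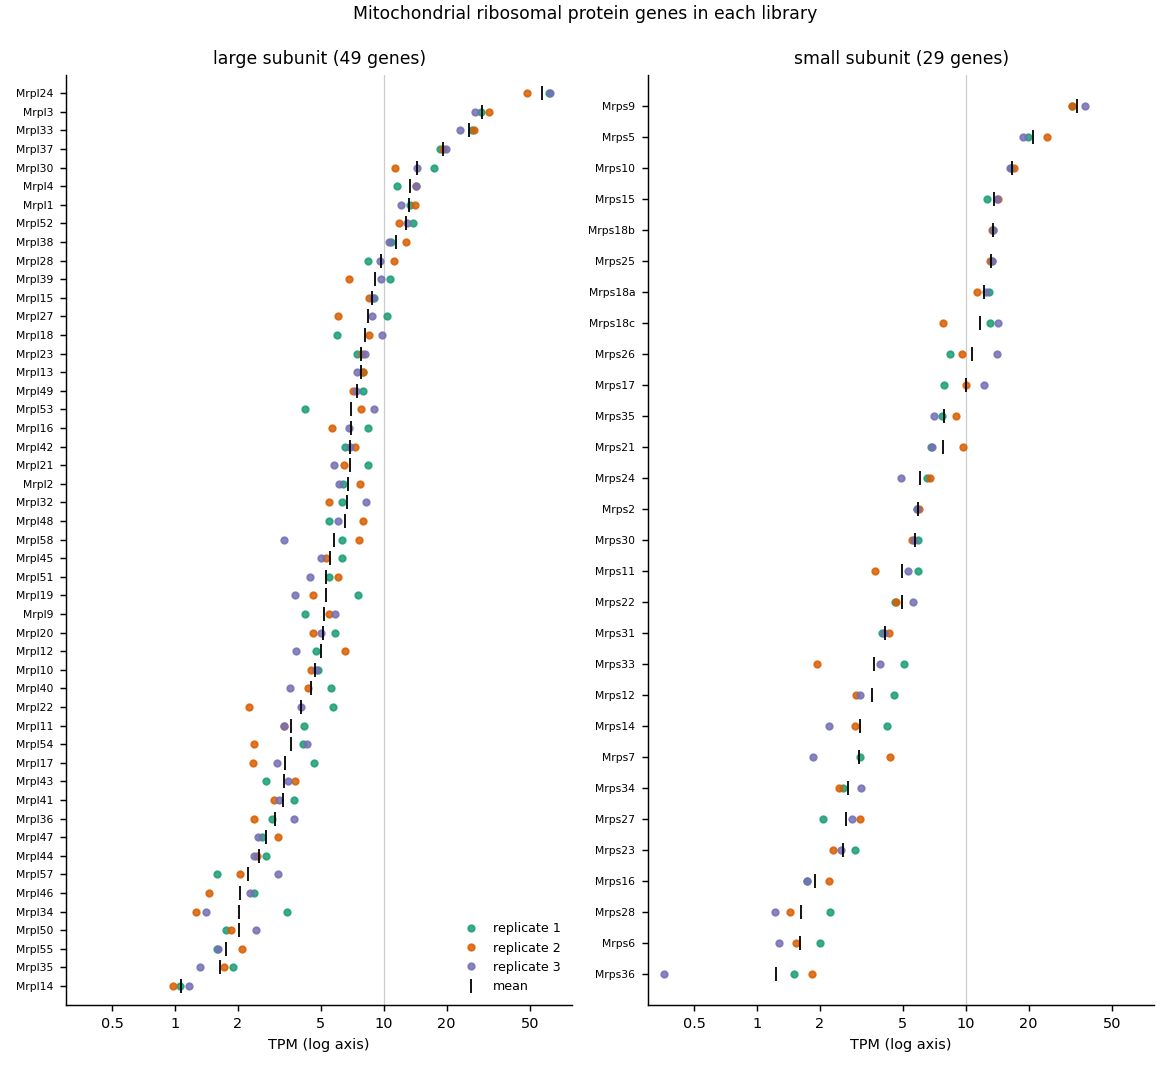
TPM of each of the 78 members in the 3 libraries (coloured points) with their mean (black tick), on a log axis, in order of mean level within each subunit; the grey line marks 10 TPM. Mrpl24 stands above all others in every library, and most members lie between 2 and 10 TPM.

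Mrpl24, a large subunit protein near the exit tunnel, was the highest member. Its gene (ENSMUSG00000019710.13, chromosome 3, 87919506 to 87923672, GRCm38) gave 61.6, 48.5 and 62.2 TPM in replicates 1, 2 and 3 (57.4 ± 7.76, SD, n = 3). Its lowest library, replicate 2, still exceeded every value of the next member. That next member was Mrps9, whose product lies in the head of the small subunit, at 32.3, 32.3 and 37.4 TPM. Mrpl3, a core protein of the large subunit, followed at 29.1, 31.9 and 27.3 TPM. Mrpl33 gave 26.4, 27.2 and 23.2 TPM, and Mrps5, which lines the mRNA entrance, 19.9, 24.5 and 18.8 TPM. By alignment the libraries of Mrps9 and Mrpl3 did not overlap, whereas those of Mrpl33 and Mrps5 did. In the read-based table the order of Mrps9 and Mrpl3 reversed, also without overlap. Mrps9 gave 33.3, 35.0 and 35.7 TPM there, Mrpl3 40.4, 45.3 and 39.5 TPM, and Mrpl33 42.7, 44.7 and 41.6 TPM.

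Mrpl37 (18.5, 19.2 and 19.9 TPM) and Mrpl30 (17.4, 11.3 and 14.4 TPM) completed the 5 highest large subunit genes. Mrps10 gave 16.4, 17.0 and 16.3 TPM, Mrps15 12.6, 14.3 and 14.1 TPM, and Mrps18b 13.5, 13.3 and 13.5 TPM, which completed the 5 highest of the small subunit. By the SD of log2(TPM + 1) in the alignment-based table, Mrpl30 varied most among these 10 genes and Mrps18b least. In the read-based table Mrpl30 gave 20.5, 19.1 and 18.8 TPM and Mrps18b 23.8, 19.8 and 19.8 TPM, so Mrps18b varied more than Mrpl30 there.

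At the low end of the large subunit, Mrpl55 gave 1.58, 2.10 and 1.60 TPM and Mrpl35 1.90, 1.71 and 1.32 TPM. Mrpl14, which forms a bridge to the small subunit, gave 1.05, 0.98 and 1.16 TPM from 5, 6 and 8 expected counts and was not detected by alignment. In the read-based table Mrpl14 gave 4.27, 4.31 and 4.83 TPM. In the small subunit, Mrps28 gave 2.23, 1.44 and 1.22 TPM and Mrps6 2.01, 1.54 and 1.28 TPM. Mrps36 was the other member below detection, at 1.51, 1.84 and 0.36 TPM from 8, 10.5 and 3.11 expected counts. At such low counts an order among the lowest members could not be told. Mrpl35 had more, 62, 75 and 91 expected counts. By its read-based values, 9.51, 9.27 and 10.4 TPM, it took place 36 of 78 and was not among the lowest.

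The 14 members listed for a well known role had a median of 2.42 ± 0.20 (SD, n = 3) on the log2(TPM + 1) scale, and 3 of them averaged 10 TPM or more. Mrps12, part of the decoding centre, gave 4.54, 2.98 and 3.11 TPM, and Mrps7, a protein of the small subunit head, 3.11, 4.32 and 1.85 TPM. The 3 homologues of bacterial S18 were all above 10 TPM on average: Mrps18a gave 12.9, 11.3 and 12.5 TPM beside the Mrps18b values above, and Mrps18c 13.1, 7.75 and 14.3 TPM. Mrps18c was lowest in replicate 2, and its values overlapped those of the other two.

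Mrps27, a pentatricopeptide repeat protein, gave 2.07, 3.10 and 2.86 TPM, and Mrps30 5.90, 5.51 and 5.65 TPM. Of the stalk that recruits translation factors, Mrpl10 gave 4.81, 4.47 and 4.72 TPM, Mrpl12 4.71, 6.50 and 3.78 TPM, and Mrpl11 at its base 4.16, 3.34 and 3.33 TPM. These 3 stalk genes lay close together, and the libraries of Mrpl10 and Mrpl12 overlapped.

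Mrpl45, which anchors the ribosome to the inner membrane, gave 6.30, 5.30 and 4.98 TPM. Mrpl44, which carries an RNase III fold, gave 2.73, 2.46 and 2.39 TPM. Mrpl58, a peptidyl-tRNA hydrolase built into the large subunit, gave 6.30, 7.61 and 3.31 TPM. All 3 Mrpl45 values exceeded all 3 Mrpl44 values, whereas the Mrpl58 values spanned those of Mrpl45.

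The subunits had nearly the same level. The median of log2(TPM + 1) was 2.79 ± 0.03 (SD, n = 3) over large subunit genes and 2.73 ± 0.05 over small subunit genes. The difference, small minus large, was -0.01, -0.11 and -0.05 in replicates 1 to 3 (-0.06 ± 0.05, SD, n = 3). Its sign reversed, to 0.16, when CPM values (counts scaled to library size, without length correction) were used. With Mrps18a and Mrps30 counted as large and Mrps36 left out, a choice made after seeing the data, the difference was -0.09. With 3 libraries of 1 group, no exact sign test can give a p below 0.25, so no test was made on this or the other differences.

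The family's median lay below that of detected genes and below those of the respiratory chain and the cytosolic ribosome. The members' median level was 2.76 ± 0.03 (SD, n = 3) on the log2(TPM + 1) scale, beside 3.44 ± 0.03 for the 11712 detected genes with a protein-coding transcript. Cytosolic ribosomal protein genes (82) had a median of 4.31 ± 0.04, and nuclear-encoded respiratory chain genes (84) had 3.19 ± 0.03. The members' median was below that of the cytosolic list by 1.56, 1.53 and 1.56 in the 3 libraries, a difference of -1.55 ± 0.02. It was below that of the respiratory chain list by 0.41, 0.40 and 0.49, a difference of -0.43 ± 0.05. On CPM, which is not corrected for length, the second difference reversed, to 0.25, and the first shrank to -0.64.

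Other parts of mitochondrial gene expression overlapped the members in level. In each of these lists every gene was detected. The 5 subunits that carry other names had a median of 3.14 ± 0.39 (SD, n = 3). Among them Dap3, a GTP-binding protein of the small subunit, gave 60.3, 42.9 and 44.5 TPM, Ptcd3, at the mRNA entrance, 36.2, 34.7 and 34.5 TPM, and Gadd45gip1 3.78, 2.92 and 3.33 TPM. Dap3 thus lay near Mrpl24, and their libraries overlapped.

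The 25 mitoribosome assembly factors had a median of 2.98 ± 0.08. Malsu1, a factor that silences the free large subunit, gave 62.2, 51.4 and 53.4 TPM, the RNA helicase gene Dhx30 gave 53.1, 47.7 and 55.4 TPM, and Mettl15 gave 0.86, 1.85 and 1.54 TPM. For the 15 translation factors the median was 3.55 ± 0.16. The recycling factor gene Gfm2 was highest, at 44.7, 46.0 and 45.4 TPM, followed by the membrane insertase gene Oxa1l at 28.3, 37.4 and 28.6 TPM, and Taco1 was lowest at 2.04, 1.85 and 2.21 TPM. Malsu1, Dhx30 and Gfm2 thus exceeded Mrps9, the second member by alignment, in every library.

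The 17 mitochondrial aminoacyl-tRNA synthetases, which charge the organelle's tRNAs, had a median of 2.86 ± 0.23. Cars2 gave 38.2, 46.1 and 45.1 TPM, Hars2 33.3, 33.2 and 34.8 TPM, and Mars2 1.66, 1.93 and 2.34 TPM. The 6 mitochondrial transcription genes had a median of 2.34 ± 0.08, the lowest of these 5 lists in the alignment-based table but not in the read-based one, where it was 3.32 beside 3.14 for the synthetases and 3.20 for the subunits under other names. In that list the polymerase gene Polrmt gave 12.9, 14.2 and 13.3 TPM, Mterf1a 6.48, 8.04 and 9.04 TPM, and Tfam, which packages mitochondrial DNA, 2.33, 2.23 and 2.94 TPM.

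**Figure D2:**
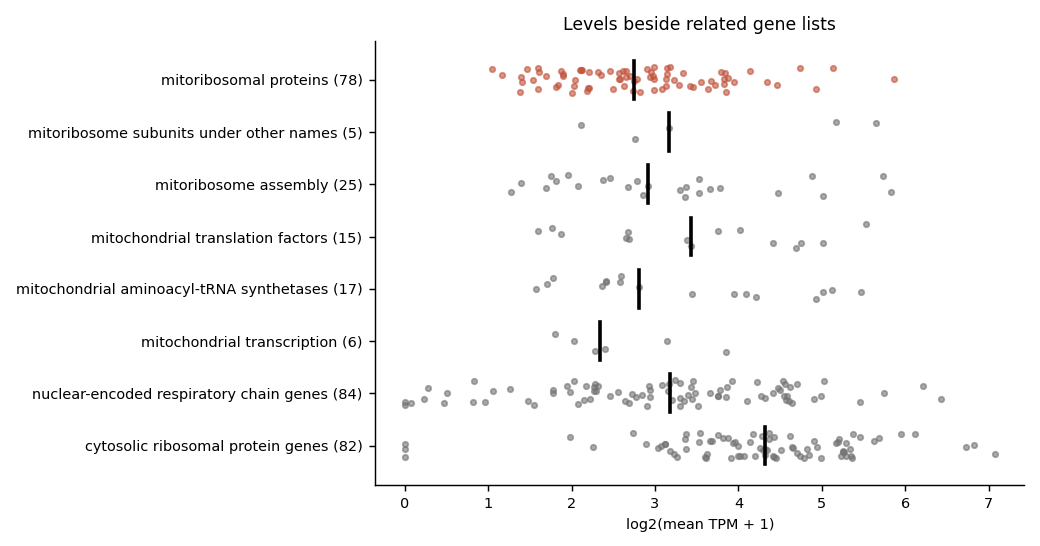
Mean level of each gene as log2 of mean TPM plus 1 (points, with vertical scatter only for visibility) in the members (red) and in 7 related lists (grey), with the number of genes in parentheses and the median of these means as a black bar. The members' bar lies left of those of the respiratory chain and cytosolic ribosomal protein lists.

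Differences between libraries were small for the family as a whole. Replicate 1 was the highest library for 31 of 76 detected members, beside 36.3% of detected genes. Replicate 2 was highest for 26 members, beside 29.3%, and replicate 3 for 18, beside 33.8%, with 1 tie. The median deviation of a library from the mean of the other two was 0.04, -0.04 and -0.02 (log2) for replicates 1, 2 and 3, against 0.00, -0.03 and 0.03 over all detected genes. The sign for replicate 2 reversed, to 0.04 with TMM scaling and 0.05 with DESeq2 size factors. In the read-based table replicate 1 was highest for 39 of 76 members, beside 37.0% of detected genes. Its median deviation there was 0.08, against -0.004 over all detected genes. All 5 subunits under other names were highest in replicate 1, whereas 1 of the 17 synthetases was. RNA input and depth also differed between these libraries, and their part in this was not tested.

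For single members, the median SD of log2(TPM + 1) over the 3 libraries was 0.18 for detected members and 0.16 for detected genes. It was 0.17 for the 8345 detected genes whose mean counts lay in the members' range, 11.3 to 793. The biological coefficient of variation from edgeR had a median of 0.168 for members and 0.146 for detected genes. In the read-based table the SDs were 0.13 for members and 0.14 for detected genes, so the members' SD was not the larger one there. The order of the members was similar in all libraries, with Spearman correlations of 0.91 to 0.94 over 78 members, beside 0.98 to 0.99 over 11712 detected genes, which span a wider range of levels.

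Among the 39 members with a mean of at least 100 counts, Mrpl19 spread most in alignment-based TPM, at 7.49, 4.56 and 3.76 TPM in replicates 1 to 3. Its read-based values were 10.9, 5.73 and 5.14 TPM, and its edgeR coefficient of variation, 0.148, was below the members' median. Mrpl17 gave 4.63, 2.36 and 3.06 TPM by alignment but 3.50, 3.25 and 3.15 read-based TPM, and Mrps14 4.21, 2.94 and 2.21 TPM. These were highest in replicate 1, as were Mrpl39 (10.7, 6.79 and 9.70 TPM) and Mrpl30. Mrps26 went the other way, with 8.39, 9.63 and 14.1 TPM and its highest value in replicate 3. The steadiest by alignment were Mrps18b, with a highest value 1.02 times its lowest but 23.8, 19.8 and 19.8 read-based TPM, and Mrps2, a small subunit protein, at 5.84, 5.97 and 5.83 TPM.

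Each gene's level was also split by the annotated type of its transcripts. The members have 343 annotated transcripts: 170 protein-coding, 88 retained intron, 61 processed transcripts and 24 predicted to undergo nonsense-mediated decay. A retained intron transcript keeps at least part of an intron. In the annotation 48 of 78 members (61.5%) have one, beside 62.0% of the 10618 genes with a protein-coding transcript that averaged 1 TPM or more. The tables list annotated transcripts and have no entry for a whole unspliced precursor, and how much precursor RNA entered these shares was not tested.

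Protein-coding transcripts held 45.3% ± 2.23 (SD, n = 3) of the members' summed TPM and retained intron transcripts 43.1% ± 1.05. Over all genes with a protein-coding transcript the same shares were 48.6% ± 1.05 and 38.4% ± 0.94. The order of the retained intron shares reversed in the read-based table, with 30.9% ± 0.89 for members and 34.3% ± 0.38 for all these genes, beside protein-coding shares of 44.6% ± 0.43 and 44.4% ± 0.58. Retained intron transcripts held over 50% of TPM in 26 members, beside 27.6% of 10618 genes averaging 1 TPM or more. By the read-based values this was so for 20 members, beside 25.1%, and 17 were over 50% in both tables. Protein-coding transcripts held over 50% in 40 members, beside 57.3%, and in the read-based table in 42, beside 51.0%.

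In the alignment-based table the retained intron share was larger in the higher members. Its median was 0% over the 33 members between 1 and 5 TPM, 43.4% ± 1.68 over the 26 between 5 and 10 TPM, and 53.5% ± 0.80 over the 19 at 10 TPM or more. The same tiers of all genes had medians of 0%, 15.1% ± 1.18 and 37.7% ± 1.10. Members in these tiers had an annotated retained intron transcript in 36.4%, 73.1% and 89.5% of cases, beside 41.6%, 56.6% and 74.0% of all genes. The level includes the retained intron TPM itself, so level and share are not independent. The annotation also moves with the level, and the part of these in the shares was not tested. Among genes that have such a transcript, the median share was 54.3% ± 2.06 over 48 members and 46.8% ± 1.24 over 6584 genes. In the read-based table that order reversed, with 43.6% ± 0.89 over 48 members and 45.5% ± 0.66 over 7515 genes.

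**Figure D3:**
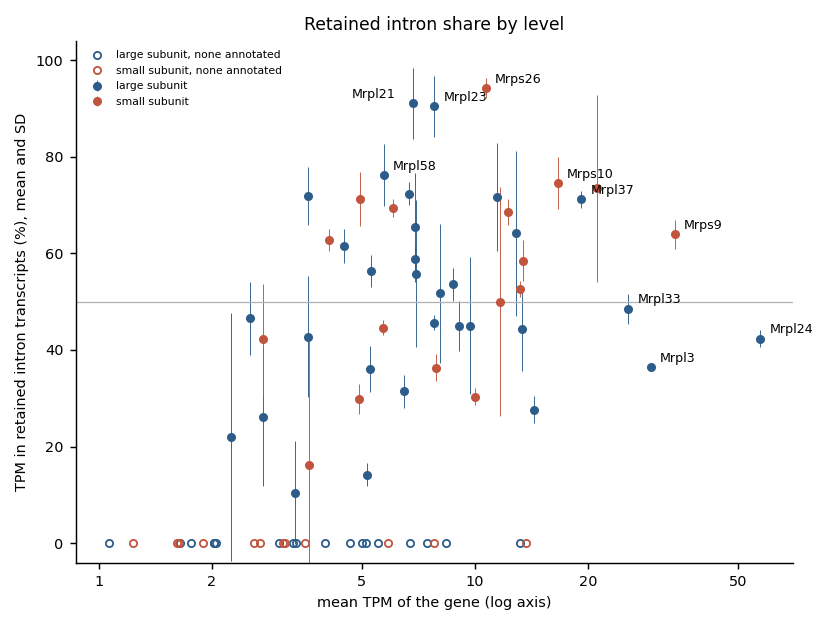
Percent of a gene's TPM in retained intron transcripts (mean and SD of 3 libraries) against its mean TPM on a log axis, for 78 members; open circles have no retained intron transcript in the annotation, and the grey line marks 50%. Low members lie mostly at 0, and Mrps26, Mrpl21 and Mrpl23 lie above 90%.

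Mrps26, a small subunit protein, had the largest retained intron share, at 95.5%, 91.9% and 95.3% in replicates 1 to 3. A single transcript of 1057 nt, Mrps26-201, carried it, at 10.1 TPM, whereas the protein-coding Mrps26-202 had 0.61 TPM. Mrpl21 had shares of 99.5%, 86.6% and 87.0%, and Mrpl23, a protein at the exit of the tunnel, 83.3%, 95.1% and 92.9%. Mrpl58 had 70.5%, 83.2% and 74.9%, and Mrps10 had 79.4%, 68.7% and 75.5%. In the read-based table the shares of these 5 genes were lower, at 68.9%, 83.3%, 70.9%, 58.6% and 52.9% in the same order, and all stayed above 50%.

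Counting only protein-coding transcripts changed the order of the members. Mrpl24 stayed first, at 33.2 ± 5.43 TPM (SD, n = 3), with a retained intron share of 42.4% ± 1.82. Mrps9, second by gene, fell to place 52 with 2.03 ± 0.59 TPM, since 63.9% ± 2.96 of its TPM lay in retained intron and 28.2% ± 4.33 in processed transcripts. Mrpl33 fell to place 22 with 3.62 ± 0.66 TPM. Mrpl3 (16.2 ± 0.82 TPM) and Mrpl1 (13.1 ± 1.02 TPM, all of its level) took the next places after Mrpl24. A retained intron transcript was the highest single transcript of 32 members, beside 27.6% of the genes averaging 1 TPM or more, and a protein-coding one that of 42, beside 64.2%. In the read-based table these numbers were 19, beside 28.8%, and 44, beside 53.2%. The same transcript led in both tables for 42 members, and the share of all genes for which this holds was not computed. Assignment of reads to transcripts that share exons is an estimate, so these shares are less certain than gene levels. Mrps5 shows this, with a retained intron share of 73.7%, 92.7% and 53.9% in the 3 libraries.

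The deposited tables come from a pair of methods, which are compared here gene by gene. The read-based table assigns reads directly to transcripts, and its transcript values were summed per gene. It gave a higher TPM for 61 of 78 members, 59 of them among the 76 detected, beside 77.8% of detected genes. The members' median level was 3.36 ± 0.04 (SD, n = 3) instead of 2.76, and that of detected genes was 3.93 ± 0.01 instead of 3.44. Read-based TPM was at least 2 times the alignment-based TPM for 17 of 76 detected members, beside 19.8% of detected genes. Spearman's correlation between the tables was 0.79 over 78 members and 0.94 over 11712 detected genes, on log2(TPM + 1). The members span a narrower range of levels, which alone can lower a correlation.

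Mrpl48, a large subunit protein, differed most. Its alignment-based values were 5.49, 7.95 and 6.04 TPM, and its read-based values 70.9, 72.4 and 62.3 TPM, the highest of all members in that table. The gap lay in 1 processed transcript of 706 nt, Mrpl48-203, with 61.2, 60.6 and 50.1 TPM in the read-based table and 1.13, 1.69 and 0.66 TPM in the other. Mrps36 gave 13.3, 9.31 and 10.3 read-based TPM, so a member below detection by alignment had an ordinary level by the other method. Mrpl35 gave 9.51, 9.27 and 10.4 read-based TPM, mostly in its protein-coding Mrpl35-201 of 3721 nt, and Mrpl20 29.7, 28.3 and 26.2 read-based TPM, mostly in Mrpl20-202 of 442 nt. For each of these 4 genes the values of the tables did not overlap.

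In the opposite direction, Mrpl53 gave 4.17, 7.79 and 8.93 TPM by alignment and 3.58, 3.99 and 6.20 read-based TPM. Mrps34 gave 2.58, 2.48 and 3.16 TPM by alignment and 1.87, 1.70 and 2.00 read-based TPM. Both genes overlap another gene on their own strand, Mrpl53 with Gm42688 and Mrps34 with Nme3. Such an overlap was present for 17.1% of detected members and 24.2% of detected genes. Mrps36 and Mrpl48 are among the 17 members whose transcript has a near-identical copy in another gene that does not overlap it (at least 95% identity over at least 80% of the shorter transcript). All of these copies are annotated as processed pseudogenes, that of Mrpl32, Gm6578, as a transcribed one. The share of other genes with such a copy was not computed. Mrps36-ps2, for instance, had 2.36 TPM by alignment, and Mrps36 and its copies are uncertain to that extent. The part of copies and overlaps in the gap between tables was not tested.

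**Figure D4:**
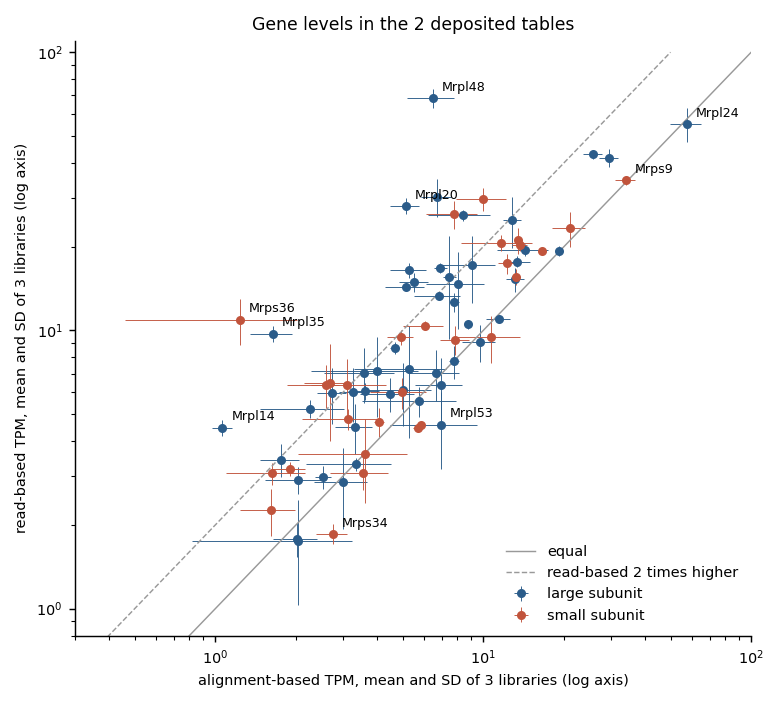
Read-based against alignment-based TPM of the 78 members (mean and SD of 3 libraries, both axes log), by subunit, with lines at equality and at a 2 times higher read-based value. Mrpl48, Mrps36, Mrpl35 and Mrpl20 lie far above the dashed line, and Mrpl24 and Mrps9 lie near equality.

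In the genome, the members are short genes that often start beside another. Their median gene length was 7900 nt, beside 23595 nt for detected genes with a protein-coding transcript. A protein-coding neighbour on the opposite strand started within 1000 nt upstream, facing away (head to head, without overlap of the starts), for 18 of 76 detected members, beside 10.8% of detected genes. The distance was 26 to 935 nt, and 100 nt or less in 11 pairs. Some other annotated gene overlapped 41 of 76 detected members, beside 56.9% of detected genes. The strand setting of the counting is unknown, and overlapping genes on opposite strands may share reads in these values. Such an opposite-strand overlap was present for 46.1% of detected members and 45.5% of detected genes. Mrpl24, which overlaps Rrnad1, and Mrpl33, which overlaps Rbks, are among these members. Mrps11 and Mrpl46, a pair of members on opposite strands of chromosome 7, overlap each other.

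Mean levels lay within 2 times of each other in 7 of the 18 pairs. The neighbour was higher than the member in 12 pairs and lower in 6. The same counts were not made for pairs of other genes. The median of mean TPM was 5.81 for detected members and 9.88 for detected genes, so a higher neighbour is no trait of these pairs by itself. Mrpl32 (6.31, 5.45 and 8.23 TPM) lay near Psma2, a proteasome subunit gene 75 nt away, which gave 6.07, 5.96 and 5.78 TPM. Mrpl41 gave 3.72, 2.97 and 3.14 TPM, whereas Pnpla7, which starts 935 nt away, gave 128, 160 and 157 TPM. Mrps18b lay 45 nt from Ppp1r10, a phosphatase 1 regulator, which gave 73.3, 49.8 and 59.1 TPM. Mrps5, in contrast, exceeded Zfp661, which gave 1.85, 2.89 and 2.76 TPM. Further pairs join genes of the same organelle: Mrps12 with Sars2, the mitochondrial seryl-tRNA synthetase, at 4.32 ± 0.33 TPM (SD, n = 3), and Mrps27 with Ptcd2 at 6.66 ± 0.20 TPM. The pairs named here were chosen after their values were seen.

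**Figure D5:**
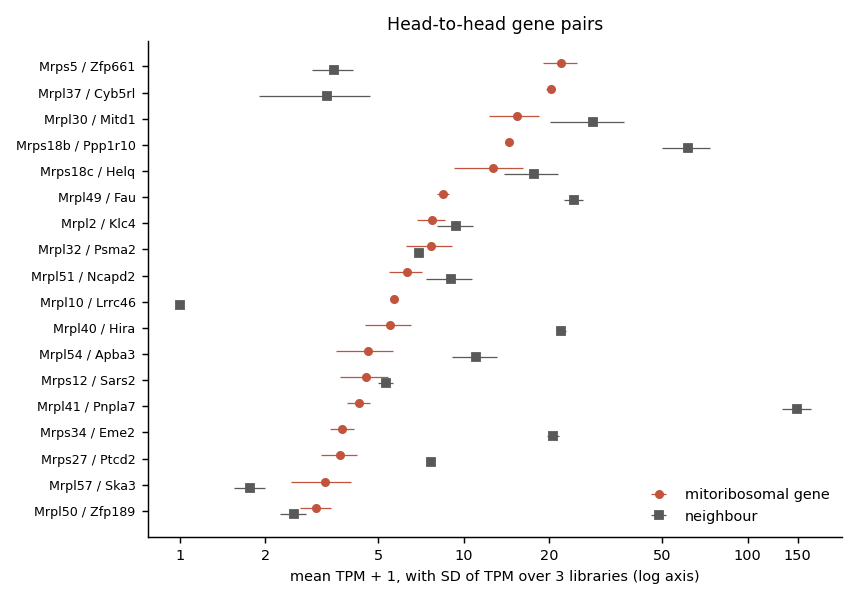
Mean TPM plus 1 of the member (red circle) and of its head-to-head neighbour (grey square) in 18 pairs, with the SD of TPM over 3 libraries, on a log axis. The neighbour lies to the right in 12 pairs, farthest for Pnpla7 beside Mrpl41.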

How the data were processed

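Deposited tables of 3 libraries were used. The authors' alignment-based gene and transcript tables hold expected counts, TPM and effective lengths, and a read-based transcript table holds estimated counts and TPM. Bounds of a TPM interval in the deposited gene table (a signal whose level the headers do not give) were not used for any result. Per the labels the build is mm10; aligner, counter, annotation and strand setting are not given in the sources used here. Transcript names matched GENCODE M21, which gave positions.

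The members and lists were chosen with earlier results of these data known. Levels are deposited TPM, mean ± SD over 3 libraries, and list medians of log2(TPM + 1). Spread was fitted with edgeR 4.0.16 (TMM, intercept only) on expected counts rounded to whole numbers, and checked on simulated counts. DESeq2 1.42.0 size factors were an alternative. Copies were found with BLAST+ 2.17.0. Alternatives also covered pseudocount, filters, the other table and each library left out. Named members are the 5 highest and 3 lowest of each subunit, the 6 most and 2 least variable among those with 100 counts or more, the 5 with the largest retained intron share, the 4 largest and 2 smallest ratios of the tables, those below detection and a list of known roles; of each other mitochondrial expression list, the 2 highest and the lowest.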

Additional observations from a re-analysis of the deposited data

How the results depend on the processing

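Of 93 alternatives over 16 results, 73 kept the sign within a margin, 16 moved the value beyond it and 4 reversed a sign. The margin was 1 SD between libraries for levels, shares and deviations, and 1.5 times for counts and measures of spread. The members' median level was 3.36 in the read-based table, 3.57 after leaving out features under 200 nt and ribosomal RNA loci, and 2.55 with a pseudocount of 0.1. The small minus large difference became 0.16 on TMM-scaled CPM, not corrected for length. The difference from cytosolic ribosomal protein genes was -1.35 in the read-based table, -0.64 on TMM-scaled CPM and -1.69 with a pseudocount of 0.1. The difference from respiratory chain genes was -0.55, 0.25 and -0.49 under the same settings, and -0.57 over genes with at least 10 counts. The median deviation became 0.13 for replicate 1 and -0.087 for replicate 3 on TPM rescaled without short features and ribosomal RNA loci, for replicate 1 it was 0.011 with TMM and 0.081 in the read-based table, and for replicate 2 it reversed to 0.042 with TMM and 0.047 with DESeq2 size factors. Over members of at least 5 TPM the median share in protein-coding transcripts was 38.4% and that in retained introns 48.6%, and the latter was 25.6% in the read-based table. The causes of these shifts were not tested. Leaving out each library in turn reversed no sign. Depth limits single members: 39 of 78 had a mean of 100 counts or more. Positions and promoter motifs were computed in 1 way.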
